A study of Mus musculus with 4 samples.

Results

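The gene-densest 50 kb bins of the mouse autosomes were examined in population-based replication timing (RT) data. A bin was taken when at least 5 protein-coding genes of the GENCODE vM21 annotation had their 5′ end in it on mm10, whatever its RT. Of the 47928 autosomal bins with an RT value, 233 (0.486%) met this rule. They held 1328 of the 20732 protein-coding gene starts (6.41%), and no autosomal bin of this gene density lacked a value. The cells were F121-9 mouse embryonic stem cells (mESCs), a diploid hybrid cas/129 line in which every chromosome pair has a homolog from each parent strain. They were cultured without feeder cells in N2B27 medium with the 2i inhibitors and LIF, which keep mESCs undifferentiated. Nascent DNA was labeled with BrdU, and cells were sorted by DNA content into an early and a late S-phase fraction, with 2 libraries of each. RT was the log2 of early over late reads, both as RPM, which corrects for the read number of a library, and was given as 1 value per bin for all 4 libraries together. A value above 0 is called early and a value of 0 or below is called late. All values come from 1 cell line, average over both homologs and carry no replicate error, and the read number per bin is unknown. RT holds no marker levels, so the labeled cell type was not checked.

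A dividing cell does not copy its whole genome at once, and each stretch of a chromosome has its turn. Stretches rich in genes and in GC, with open and active chromatin, tend to replicate early, and gene-poor, AT-rich ones tend to replicate late. Many genes also lie close together because they arose by tandem duplication, and such clusters often encode products of particular tissues, such as hair proteins or odorant receptors, that are not made in stem cells.

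The 200 bases upstream of 8 gene starts are shown first because they display the sequence features by which the early and late gene-dense bins differed. They were read from the mm10 reference along each gene's own strand and overlap no annotated exon. CpG dinucleotides are in capitals, as is the motif TATAAA where it lies on this strand within the 50 bases before the start. Pip5k1c (chr10:81292763-81292962, plus strand) encodes a kinase that makes a membrane phosphoinositide, and Vegfb (chr19:6987652-6987851, minus strand) encodes a growth factor. Both lie in the bins with the highest RT. Hist1h4d (chr13:23581398-23581597, plus strand) and Hist1h1a (chr13:23763466-23763665, plus strand) encode histones, the first in an early and the second in a late bin. The last 4 come from late bins. Krtap19-1 (chr16:88869412-88869611, minus strand) and Krtap3-3 (chr11:99550866-99551065, minus strand) encode keratin-associated proteins of hair, Sprr1b (chr3:92438790-92438989, minus strand) encodes a protein of the cornified envelope of skin, and Olfr598 (chr7:103323368-103323567, plus strand) encodes an olfactory receptor.
Pip5k1c: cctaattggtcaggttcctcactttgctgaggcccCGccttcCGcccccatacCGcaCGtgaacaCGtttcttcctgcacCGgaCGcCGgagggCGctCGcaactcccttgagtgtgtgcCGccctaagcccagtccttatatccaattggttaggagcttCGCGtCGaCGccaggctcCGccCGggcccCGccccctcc
Vegfb: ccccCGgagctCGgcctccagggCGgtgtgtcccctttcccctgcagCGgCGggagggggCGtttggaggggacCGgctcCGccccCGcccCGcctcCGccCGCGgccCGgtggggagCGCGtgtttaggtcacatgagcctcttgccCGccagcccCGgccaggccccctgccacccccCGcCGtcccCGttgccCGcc
Hist1h4d: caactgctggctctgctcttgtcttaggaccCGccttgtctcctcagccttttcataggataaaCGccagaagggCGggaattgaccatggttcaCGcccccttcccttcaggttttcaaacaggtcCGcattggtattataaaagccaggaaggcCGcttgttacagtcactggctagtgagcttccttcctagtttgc
Hist1h1a: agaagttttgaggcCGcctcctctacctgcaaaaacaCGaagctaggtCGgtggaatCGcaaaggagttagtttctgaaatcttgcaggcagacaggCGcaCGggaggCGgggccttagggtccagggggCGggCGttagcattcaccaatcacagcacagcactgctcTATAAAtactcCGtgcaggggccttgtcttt
Krtap19-1: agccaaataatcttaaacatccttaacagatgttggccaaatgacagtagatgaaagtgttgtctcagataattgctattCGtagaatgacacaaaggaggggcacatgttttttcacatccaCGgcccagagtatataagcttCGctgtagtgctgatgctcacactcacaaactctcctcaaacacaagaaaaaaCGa
Krtap3-3: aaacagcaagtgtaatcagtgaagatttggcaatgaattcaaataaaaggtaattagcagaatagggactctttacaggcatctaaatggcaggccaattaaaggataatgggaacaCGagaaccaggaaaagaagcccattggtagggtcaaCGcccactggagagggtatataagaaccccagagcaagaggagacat
Sprr1b: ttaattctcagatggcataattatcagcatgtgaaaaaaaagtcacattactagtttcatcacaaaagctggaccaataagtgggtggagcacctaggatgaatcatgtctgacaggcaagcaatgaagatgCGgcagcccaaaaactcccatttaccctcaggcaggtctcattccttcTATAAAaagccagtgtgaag
Olfr598: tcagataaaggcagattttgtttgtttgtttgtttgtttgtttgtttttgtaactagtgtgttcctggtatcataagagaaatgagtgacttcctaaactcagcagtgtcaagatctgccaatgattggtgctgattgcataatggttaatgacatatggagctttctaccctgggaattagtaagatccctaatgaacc

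The window of Pip5k1c held 18 CpGs and that of Vegfb held 22. Hist1h4d had 6 CpGs and Hist1h1a had 10. Krtap19-1 had 4, Krtap3-3 had 2, Sprr1b had 1 and Olfr598 had 0. The motif stood in the last 50 bases of Hist1h1a and Sprr1b. These windows were picked as examples. Over all genes of early gene-dense bins, the window held a median of 9 CpGs, with an upper quartile of 15. Pip5k1c and Vegfb lie above that quartile. Over all genes of late gene-dense bins the median was 2, with an upper quartile of 4.5. Counts of the motif over all genes are given further on.

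Most gene-dense bins replicated early. RT was above 0 in 211 of the 233 bins (90.6%, exact 95% binomial interval 86.1 to 94.0), whereas 42.1% of all autosomal bins were early. RT was above 3 in 174 bins (74.7%, interval 68.6 to 80.1), compared with 12.3% of all autosomal bins. The median RT was 3.50 (95% interval from order statistics 3.45 to 3.55), the quartiles were 2.98 and 3.68, and the range ran from -4.87 to 4.0. The median of all autosomal bins was -0.85. Intervals cover the counting of bins only, and neighboring bins are not independent, so no test over bins was made. The 211 early bins had a median RT of 3.53, and the 22 late bins had a median of -2.18 with a range of -4.87 to -0.57. Between RT -1 and 1 lay 18 of the 233 bins (7.73%). The share of all autosomal bins in this interval was not counted. A local SD, from the deviation of each bin from its neighbors' mean, was 0.134 for gene-dense bins and 0.136 for all autosomal bins. It was 0.139 for the early and 0.185 for the late gene-dense bins. This SD describes the local roughness of the profile, whose smoothing is unknown, and not the error of a value.

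**Figure D1:**
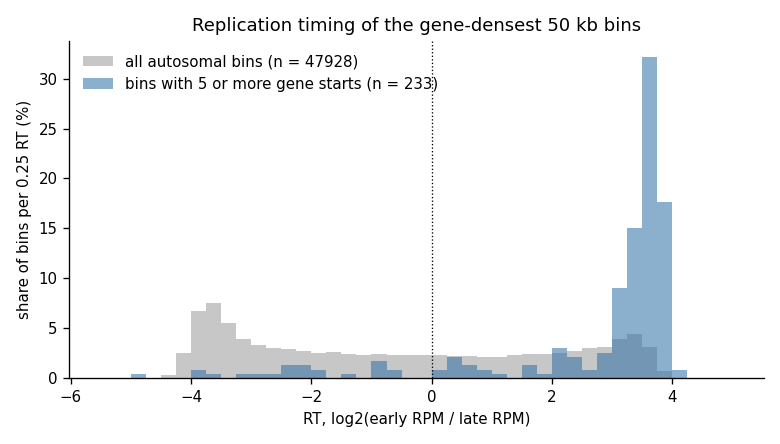
Share of bins per 0.25 RT interval, with RT as log2 of early over late RPM on the x axis, for all 47928 autosomal bins (gray) and the 233 bins with 5 or more gene starts (blue). The dotted line marks RT 0; the blue distribution peaks above RT 3, where 174 of the 233 bins lie, and has a thin tail of 22 late bins.

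RT was higher in bins with more gene starts up to about the threshold of the rule and not beyond it. Bins with 0 gene starts had a median RT of -1.85 and were early in 30.8% of cases. Bins with 1 gene start had a median of 1.47, and bins with 3 had a median of 3.06. Just outside the threshold, the 360 bins with 4 gene starts had a median RT of 3.33 and an early share of 80.6% (76.1 to 84.5). Just inside it, the 145 bins with 5 gene starts had a median of 3.51 and an early share of 90.3% (84.3 to 94.6). Above the threshold the medians were 3.50, 3.53 and 3.33 for 6, 7 and 8 gene starts, and 2.07 for the 6 bins with 9. Among the 233 bins the Spearman correlation of RT with the number of gene starts was -0.03. The 5 bins with the most gene starts were of 2 kinds. RT was 3.59 at chr19:6050001-6100000, with 10 gene starts including Mrpl49, Tm7sf2 and Cdca5, 3.85 at chr2:25200001-25250000, with 9 including Nelfb and Tubb4b, and 3.65 at chr7:30550001-30600000, with 9 including Hspb6, Psenen and Kmt2b. No gene of these 3 bins had a copy of its coding sequence in the bin. The other 2, with 12 and 9 gene starts that all had such a copy, had RT of 0.28 and -2.27 and are described with the gene copies.

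**Figure D2:**
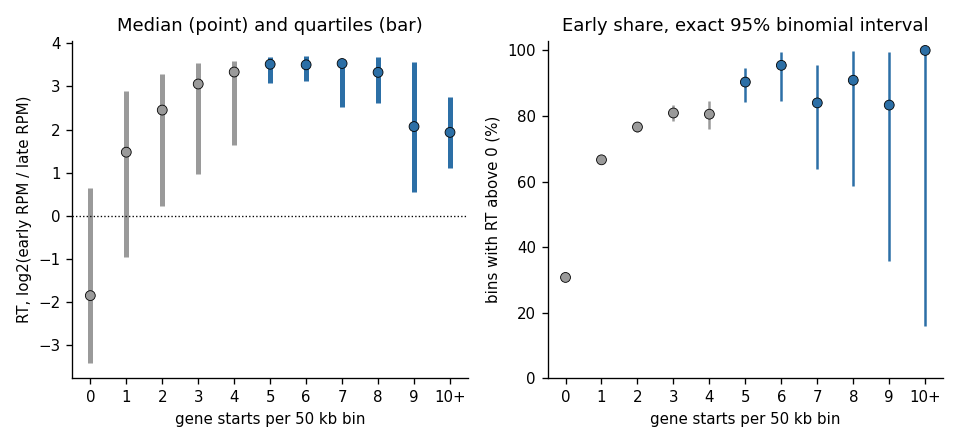
Left, median RT (point) and quartiles (bar) of autosomal bins by number of protein-coding gene starts; right, share of bins with RT above 0 with its exact 95% binomial interval. Blue marks the gene-dense bins (5 or more starts) and gray the others; medians lie at -1.85 for 0 starts and 3.51 for 5 starts, and hardly above that for more.

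The earliest gene-dense bins held mixtures of unrelated genes. The bin with the highest RT, 4.0, was chr10:81250001-81300000, with Matk, a tyrosine kinase, Mrpl54, a mitochondrial ribosomal protein, Apba3, Tjp3, a tight junction protein, and Pip5k1c. Its neighbors had RT of 3.92 and 4.10. RT was also 4.0 at chr19:6950001-7000000, where Ppp1r14b, Plcb3, Fkbp2, Vegfb, Dnajc4, Nudt22 and Trpt1 start. This bin lay above its neighbors of 3.61 and 3.57. The next was chr7:141450001-141500000, at 3.96, with Pnpla2, a triglyceride lipase, Cracr2b, Cd151, Polr2l, a subunit shared by the RNA polymerases, and Tspan4. RT was 3.93 at chr10:80100001-80150000 with Sbno2, the kinase Stk11, the ATP synthase subunit Atp5d, Cbarp and Midn. None of the genes in these 4 bins had a copy of its coding sequence in the same bin. The bin closest to the median of all 233, chr3:95100001-95150000 at 3.50, was of the same kind, with Pip5k1a, Vps72, Tmod4, Scnm1, Lysmd1 and Tnfaip8l2.

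Genes used in every cell type were also examined, by 8 lists, named for ribosomal, respiratory chain, proteasome and similar genes, whose members lie scattered over the genome. Of their 440 autosomal genes, 49 started in a gene-dense bin, and all 49 of these did so in an early bin. For all genes that start in gene-dense bins, this was 1201 of 1328 (90.4%). Of all genes on these lists, 93.2% lay in early bins, compared with 74.1% of all autosomal protein-coding genes. The 15 cytosolic ribosomal protein genes, among them Rpl13a, Rps2 and Rpl7a, had RT between 3.02 and 3.90. The 10 mitochondrial ribosomal protein genes had RT of at least 3.44, the 7 respiratory chain genes at least 3.33, and the 5 proteasome genes at least 3.21. The lowest of the 49 was Mcm7, a subunit of the replicative helicase, in a bin with RT 2.50. The lists were matched by symbol, and some genes have a narrower or another role. Examples are Rpl3l, a muscle form of a ribosomal protein, Psmb11, a proteasome subunit of the thymus, Cox6b2, a testis form of its subunit, Psmc3ip, a factor of meiotic recombination, and Eif4ebp3, an inhibitor of translation initiation.

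The late gene-dense bins were mostly clusters of duplicated genes. A bin was called a copy bin when at least 50% of its genes had a copy of their coding sequence in the same bin, at 70% identity or more over at least 50% of the shorter sequence. This definition was made after the values were seen. Of the 233 bins, 37 were copy bins, and 19 of these were early and 18 late, an early share of 51.4% (34.4 to 68.1). Of the other 196 bins, 192 were early (98.0%, 94.9 to 99.4). Copy bins made up 18 of the 22 late bins and 19 of the 211 early ones. The median RT was 0.28 in copy bins and 3.55 in the others. Even the early copy bins were less early, with a median of 1.97 and 4 of 19 above RT 3, whereas 170 of the 192 other early bins were above RT 3. The pattern was also present just outside the threshold, where copy bins with 4 gene starts were early in 26 of 78 cases (33.3%) and the others in 264 of 282 (93.6%). The copies were close to identical in many bins, with a median identity per bin of 97.4% in early and 94.8% in late copy bins. A filter on mapping quality is described for the study, though not for Repli-seq by name. How many reads of such sequences were lost or placed on another copy is unknown, and the part of read mapping in these RT values was not tested.

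The 4 late bins that were not copy bins also held small families. At chr5:90750001-90800000, with RT -2.81, start the chemokine genes Cxcl5, Ppbp, Pf4, Cxcl3 and Cxcl15. At chr13:60900001-60950000, with RT -2.19, start Tpbpa and Tpbpb, markers of the trophoblast, and Ctla2a. At chr2:148750001-148800000, with RT -0.86, start Cstl1, Cst11, Cst12 and Cst8 of the cystatin family of protease inhibitors. The last, chr13:21700001-21750000 with RT -0.57, held 5 histone genes.

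Keratin-associated protein genes, which encode the matrix proteins of hair, gave the most late genes of the family lists. Of 57 such autosomal genes, 26 started in gene-dense bins, 23 of them in late ones. Of all 57, 10.5% lay in early bins, so the whole family was mostly late. On chromosome 16, chr16:89000001-89050000 with Krtap22-2, Krtap6-1 and Krtap6-5 had RT -3.83, and chr16:88850001-88900000 with Krtap19-1 to Krtap19-5 had RT -3.51. Both lay in a late segment of 1950 kb, a segment being a stretch of bins on the same side of RT 0 with no gap over 200 kb. Chromosome 11 differed in its surroundings. There chr11:99550001-99600000 with Krtap3-3, Krtap3-2, Krtap3-1 and Krtap1-5 had RT -2.13, and chr11:99600001-99650000 with Krtap2-4, Krtap4-1, Krtap4-2 and Krtap4-7 had RT -1.96. Further along, chr11:99750001-99800000 had RT -2.68 and chr11:99850001-99900000 had RT -2.48. These 4 bins shared a late segment of 650 kb, and their RT minus the mean of the bins 500 kb to either side was between -5.64 and -4.14. On chromosome 10 the family was early. The 3 adjacent bins of chr10:77700001-77850000, with 19 gene starts including Krtap12-1, Krtap10-4 and Krtap10-10, had RT between 1.65 and 2.18. These bins also lay below their flanks, with differences of -1.15, -1.83 and -1.39.

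Other late clusters encode products of skin and sensory cells. The bin chr3:92400001-92450000, with Sprr2i, Sprr2k and Sprr1b of the epidermal differentiation complex, had RT -3.76. The 5 olfactory receptor genes Olfr596 to Olfr600 at chr7:103300001-103350000 had RT -3.25, and the bitter taste receptor genes Tas2r107, Tas2r106, Tas2r104, Tas2r105 and Tas2r114 at chr6:131650001-131700000 had RT -2.29. The list of taste and trace amine receptors had 5 genes in this late bin and 5 in an early one. Of all 50 autosomal genes of this list, 16% lay in early bins. The early one, chr10:23950001-24000000 with Taar4 to Taar7b, had RT 0.59. Olfactory receptors are the largest gene family of the mouse, yet 9 of 1128 autosomal genes started in a gene-dense bin, and none of 314 vomeronasal receptor genes did. Of these 9 olfactory receptor genes, 4 were in early bins and 5 in the late one. Of all 1128, 17.7% lay in early bins. Olfr311, Olfr312 and Olfr313 start at chr11:58800001-58850000, at RT 0.43, between neighbors of -0.27 and 1.16. Olfr750 starts at chr14:51050001-51100000, at RT 2.46. Some bins held only genes with provisional symbols. The lowest RT, -4.87, was that of chr10:104150001-104200000, whose 6 genes, Gm6763 among them, had copies at a median identity of 100%.

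Type I interferon genes gave the bin with the most gene starts. The 12 genes of chr4:88750001-88800000, Ifnz and 11 genes with provisional symbols, all had a copy in the bin, at a median identity of 99.8%, and RT was 0.28. It was an early segment of 50 kb between neighbors at -0.67 and -0.74, the latter of which holds Ifna7, Ifna11, Ifna6, Ifna5 and Ifna4. Such steps were rare. RT differed by more than 0.5 from the mean of both neighbors in 8 of the 233 bins (3.43%), namely in 3 of 37 copy bins and 5 of 196 others, compared with 1.37% of all autosomal bins. The 3 largest differences were those of copy bins. They were -1.22 for the lowest bin on chromosome 10, 0.98 for the Ifnz bin and 0.91 for chr9:3000001-3050000. This last bin, at the start of the assembled sequence of chromosome 9, had RT -2.27, and 86.2% of its bases are repeat-masked in the reference. The RT of its left neighbor, -3.94, was given for a bin in which the reference has no assembled base.

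The clustered protocadherins, neuronal adhesion molecules made from neighboring arrays, went from early to late and back to early along chromosome 18. The bin chr18:36950001-37000000, with Pcdha4 to Pcdha9, had RT 0.46. The Pcdhb genes followed in chr18:37300001-37350000 at -2.17, chr18:37400001-37450000 at -1.34 and chr18:37450001-37500000 at -0.76, in a late segment of 500 kb. The Pcdhg genes lay in chr18:37650001-37700000 at 2.53 and chr18:37700001-37750000 at 3.02. Of the 37 protocadherin genes in gene-dense bins, 21 were thus early and 16 late. Of all 57 autosomal genes of this list, 57.9% lay in early bins. RT minus the flanks at 500 kb was between -4.83 and -2.42 for the Pcdhb bins, and was 2.28 and 2.96 for the Pcdhg bins.

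Histone genes of the replication-dependent class, whose products package newly made DNA in every dividing cell, were spread over early and late bins. Of 67 such autosomal genes, 51 started in 9 gene-dense bins, 40 in early and 11 in late ones, with RT from -1.94 to 2.21. Of all 67, 67.2% lay in early bins. In the run chr13:21700001-21850000, 3 adjacent bins with 18 histone genes had RT of -0.57, 0.40 and 1.72 in order of the coordinate. Nearby, chr13:22000001-22050000 had RT 2.02. The other histone cluster of chromosome 13 had the reverse order, with 2.18 at chr13:23500001-23550000, 0.79 at chr13:23550001-23600000, where Hist1h4d starts, and -1.94 at chr13:23750001-23800000, where Hist1h1a starts. The highest value was 2.21, at chr3:96200001-96250000 with the Hist2 genes. None of the 9 bins reached RT 3.

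Several families were early in every gene-dense bin that held them. The 18 Hox genes in gene-dense bins, transcription factors that pattern the embryo, had RT of 3.09 at chr6:52200001-52250000 (Hoxa), 3.08 at chr15:102950001-103000000 (Hoxc) and 2.04 at chr2:74650001-74700000 (Hoxd). All 24 zinc finger protein genes were in early bins, with a lowest RT of 0.51, where 90.4% of all genes in gene-dense bins and 90.05% of all autosomal zinc finger genes were early. In chr7:30050001-30100000, with Zfp14, Zfp82, Zfp566 and Zfp260, RT was 3.62. The lymphocyte antigen 6 genes Ly6g6c, Ly6g6e, Ly6g6d and Ly6g6f at chr17:35050001-35100000 had RT 3.75. Kallikreins, secreted serine proteases, had RT of 2.07 at chr7:43750001-43800000 with Klk8 to Klk12 and 2.89 at chr7:44200001-44250000 with Klk1. The Cd300 immune receptors had RT of 2.05 at chr11:115000001-115050000. The kallikrein and Cd300 bins were early but lay below their flanks, with differences of -1.15, -0.23 and -1.33. Of all autosomal genes of a list, the early share was 100% for Hox genes and 96.3% for kallikreins. It was 73.1% for lymphocyte antigen 6 genes and 51.9% for the immune receptor list that holds Cd300. By the lists of families, at least 3 genes and 50% of a bin's genes belonged to 1 family in 14 of the 22 late and 20 of the 211 early bins. With copy bins added, 20 of the 22 late bins met this or the copy rule. Of the 211 early bins, 19 were copy bins, and early bins that met either rule were not counted together. Of the 24 family lists, 8 had no gene in a gene-dense bin, namely vomeronasal receptors, keratins, defensins, serpins, secretoglobins, prolactins, carboxylesterases with UDP-glucuronosyltransferases, and Prame-like genes.

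**Figure D3:**
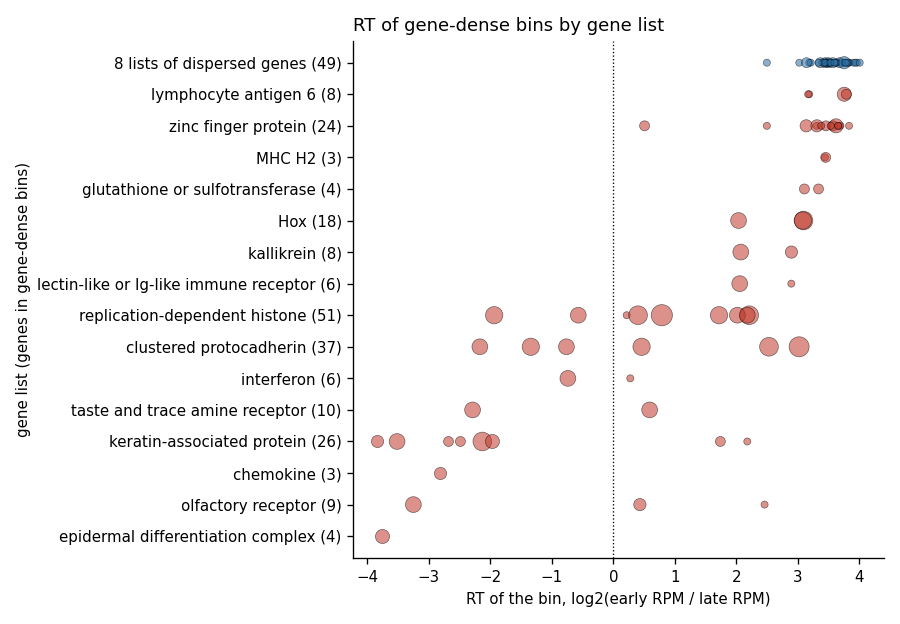
RT of gene-dense bins (x axis, log2 of early over late RPM) by gene list, with the number of the list's genes in gene-dense bins in brackets; each point is a bin and its area is proportional to the number of its genes on the list. Red marks clustered families with at least 3 genes in gene-dense bins and blue the 8 lists of dispersed genes. Keratin-associated, histone and protocadherin points lie on both sides of RT 0 (dotted), and all blue points are above 2.

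GC content, which the rule did not use, was high in gene-dense bins and moved with their RT. The median GC content was 49.6%, compared with 41.4% for all autosomal bins and 40.4% for bins with 0 gene starts. Early gene-dense bins had a median of 49.9% and late ones of 41.1%. The Spearman correlation of RT with GC content across the 233 bins was 0.75, the same as across 47923 autosomal bins with sequence (0.75), and 0.66 within the 211 early bins. These points share libraries and base composition along the chromosome, and the correlations are descriptions. Of the 22 late bins, 21 had a GC content under 44%, and 198 of the 211 early bins had 44% or more. At 44% or more, 198 of 199 gene-dense bins were early (99.5%), compared with 92.4% of bins with 1 to 4 gene starts and 74.1% of bins with 0. Under 44%, 13 of 34 gene-dense bins were early (38.2%, 22.2 to 56.4), a share between the 19.1% of bins with 0 and the 49.4% of bins with 1 to 4 gene starts. Both ranges are wide, and GC content was not matched within them. At 50% GC or more lay 104 of the 199 gene-dense bins but 651 of 7264 bins with 0 gene starts. There the early shares were 100% for gene-dense bins, 99.0% for 1 to 4 and 95.7% for 0 gene starts. From 44 to 46% GC they were 95.2%, 86.1% and 64.1%. Under 40% GC they were 0%, of 6 gene-dense bins, 22.3% and 7.07%.

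Gene copies and low GC content largely occurred in the same bins, so that their parts cannot be told apart in most of them. Of the 37 copy bins, 23 had a GC content under 44%, and 6 of these were early. The other 14 copy bins had 44% or more, and 13 of these were early. Of the other bins, 7 of 11 were early under 44% GC and 185 of 185 at 44% or more. The exception among the copy bins of higher GC was chr10:118300001-118350000, with RT -0.97 at 44.5% GC.

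**Figure D4:**
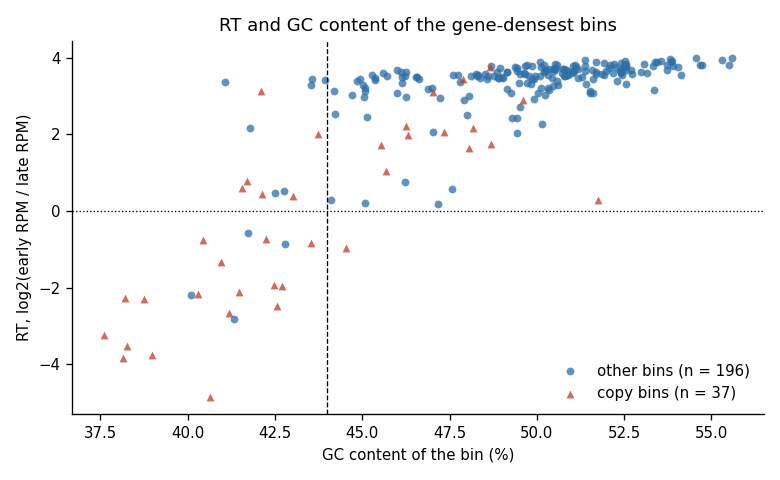
RT (log2 of early over late RPM) against GC content for each of the 233 gene-dense bins, with copy bins as red triangles (n = 37) and other bins as blue circles (n = 196). The dashed line marks 44% GC and the dotted line RT 0; all but 1 of the 22 late bins lie to the left of the dashed line, and 18 of the 22 are triangles.

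The surroundings of the gene-dense bins were compared with those of all autosomal bins, of all early or late bins and of bins above RT 3. RT was not matched for the late bins, whose median was -2.18, compared with -2.82 for all late bins. RT exceeded the mean of the bins 500 kb to the left and right in 185 of 229 bins with both values (80.8%), by a median of 0.66 (0.49 to 0.84 from order statistics). For all autosomal bins the share was 48.6% and the median difference -0.04. Early gene-dense bins lay a median of 0.78 above their flanks, which was no more than the 0.87 of all early bins or the 0.92 of all bins above RT 3. The segment that enclosed an early gene-dense bin had a median length of 3700 kb, compared with 2100 kb for all early bins and 3650 kb for all bins above RT 3. Late gene-dense bins lay below their flanks, with a median difference of -1.36 compared with -0.60 for all late bins. Of these bins, 4 of 21 lay above their flanks (exact 95% interval 5.4 to 41.9%), as did 29.6% of all late bins. The share of all late bins lies within this interval, so the count does not set late gene-dense bins apart. The late segment that enclosed a late gene-dense bin had a median length of 875 kb, compared with 3000 kb for all late bins. These medians count each bin, so a segment with several gene-dense bins enters several times. Such segments were those of the Krtap bins of chromosome 11 (650 kb) and chromosome 16 (1950 kb) and of the Pcdhb bins (500 kb). The differences from the flanks count these bins separately as well, and medians over segments were not made. The median RT at 1 Mb from a late gene-dense bin was -0.45 on the left and 1.31 on the right.

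**Figure D5:**
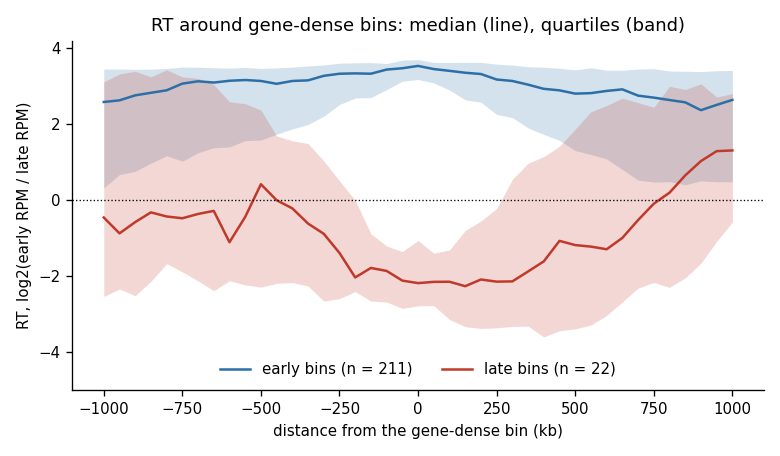
Median RT (line) and quartiles (band) by distance in kb from the gene-dense bin, for the 211 early (blue) and 22 late (red) gene-dense bins. The early median stays above 2 over the whole range of 1 Mb to either side, and the late median is -2.18 at the bin and 1.31 at 1 Mb on the right; left and right are by coordinate and have no further meaning.

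The extremes were an early and a late bin within surroundings of the other kind. At chr14:50900001-50950000, with Osgep, Apex1, a DNA repair endonuclease, Pip4p1 and Pnp, RT was 3.22, which was 5.73 above the flanks, in an early segment of 550 kb. The lowest difference, -5.64, was that of the Krtap4 bin chr11:99750001-99800000. Gene-dense bins also adjoined each other. They formed 199 runs, of which 173 were 1 bin long and 26 were longer. The longest run was chr17:34950001-35150000, in the class III region of the major histocompatibility complex, with 4 bins and 24 gene starts from Hspa1b through Msh5 and Clic1 to Bag6, and RT between 3.44 and 3.86. Among runs of 3 bins, chr7:45100001-45250000, with 15 gene starts including Rpl13a and Tead2, had a mean RT of 3.63.

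The bins were unevenly spread over the chromosomes. Chromosome 7 had 32 and chromosome 11 had 26, whereas chromosome 12 had 1. Relative to their number of bins, chromosome 19 had the highest share (1.20%) and chromosome 12 the lowest (0.0428%). The median RT per chromosome was above 3 on 16 of 19 chromosomes. The exceptions were chromosome 13 (0.79, with the histone clusters), chromosome 16 (0.01, with 4 bins) and chromosome 18 (1.49, with the protocadherins).

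The promoters of the genes differed between early and late gene-dense bins, a split made by RT itself and given as a description. Over the 300 bases from 250 before to 50 after the gene start, the ratio of observed to expected CpG had a median of 0.62 for the 1201 genes of early gene-dense bins and 0.22 for the 127 genes of late ones. The same split was present outside the gene-dense bins, with 0.65 for genes of early and 0.22 for genes of late bins. Histone genes had 0.75 in early and 0.79 in late gene-dense bins, and keratin-associated protein genes had 0.16. Without histone and protocadherin genes, the remaining 100 genes of late gene-dense bins had a median of 0.15. The promoters of the late bins had a median GC content of 42.3% and those of the early bins 57%. Of the 127 late genes, 107 lay in copy bins, and these medians count copied genes as separate ones.

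The motif TATAAA, the core of the TATA box, was searched on both strands within the 50 bases upstream of the start. It was found at 31 of 127 genes of late gene-dense bins (24.4%, 17.2 to 32.8) and at 36 of 1201 genes of early ones (3.0%). Of the 127 late genes, 107 lay in copy bins, 27 of them with the motif. Copied genes were counted as separate ones, so the interval is too narrow by an unknown amount. Of all autosomal protein-coding genes 4.02% had the motif, and of genes in late bins outside the gene-dense ones 7.55%. The families differed. In late gene-dense bins it was found at 13 of 23 keratin-associated protein genes (56.5%) and at 3 of 11 histone genes (in early ones at 7 of 40), and at none of the 16 late protocadherin genes or the 5 late olfactory receptor genes. A match describes these letters only.

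Gene structure also differed between early and late bins. Genes were short, with a median length of 6039 bases in early and 1392 bases in late gene-dense bins, compared with 17692.5 bases for all autosomal protein-coding genes. A rule that asks for many starts in 50 kb favors short genes. In early gene-dense bins 200 of 1201 genes (16.7%) had another gene starting on the opposite strand within 1000 bases upstream, a head-to-head arrangement, compared with 2 of 127 (1.57%) in late ones and 6.99% of all genes. Outside the gene-dense bins the shares were 8.05% for genes of early and 2.06% for genes of late bins. The part of the rule, which selects closely spaced starts, in these shares was not tested. Of the histone genes in early gene-dense bins, 21 of 40 were in this arrangement.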

How the data were processed

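Repli-seq was performed on 2 early and 2 late S-phase fraction libraries of diploid F121-9 mESCs. The authors converted reads to RPM and deposited the log2 ratio of early over late reads per 50 kb bin as 1 column that combines all libraries. The submitters' processing notes name Bowtie2, SAMtools, bedtools and mm10, and the study's methods state that reads of low mapping quality and duplicates were discarded, without saying whether this covered Repli-seq. How this profile was smoothed or replicates were combined is not given in the sources used here. With no value per replicate, depth is unknown and no test was made.

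Starts of protein-coding genes were counted per bin from GENCODE vM21 on the matching GRCm38 assembly, from which GC content, promoters and coding sequences were read. The early calls rest on RT above 0. Shares have exact 95% binomial intervals and medians 95% order-statistic intervals. Copies were found with blastn of BLAST 2.17.0 between longest coding sequences of a bin, on the same strand, leaving out pairs of overlapping genes. The local SD was scaled from the median absolute deviation of the difference between a bin and its neighbors' mean. Families were matched by gene symbol, 24 clustered families and 8 lists of dispersed genes.

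Bins named were the 5 with the most gene starts, the 5 highest and 5 lowest RT values, the 3 longest runs, for each family the bin it filled most, the 5 lowest late bins filled by no family, the early bin filled by olfactory receptors, the extremes against flanks and the bin closest to the median. A bin among those with the highest RT is not reported here. Others were named after their values were seen, as were the genes whose upstream sequences are shown. The members, the lists and the rules were chosen with earlier results of these data known. The steps were tested on simulated profiles. Alternatives covered the threshold, the kind of start, the families, smoothing, adjacent bins, the cut between early and late, the flank distance and the promoter window. The single-cell libraries of the study were not used here. The software was pandas 2.3.3, scipy 1.17.1 and numpy 2.4.6 under Python 3.11.15, and plots were drawn with matplotlib 3.10.9.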

Additional observations from a re-analysis of the deposited data

How the results depend on the processing

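Of 46 alternatives, 26 stayed within the interval of the value reported (for a count, within 1.5 times) and 9 were chosen after seeing the data. For 2 of the 26, which left out bins without both neighbors, the outcome was fixed, since all 233 bins have both. The early share of 90.6% was 84.5% with at least 4 gene starts, 82.8% with distinct transcript starts in place of gene starts (3454 bins), 96.6% with clustered families left out (179 bins), 85.4% with a cut at RT 1, 98.0% without copy bins and 33.3% in copy bins with exactly 4 gene starts, the last being below the 42.1% of all autosomal bins. The median RT of 3.50 was 3.40 with at least 4 and 3.33 with at least 8 gene starts, 2.94 with transcript starts, 3.56 without clustered families and 3.55 without copy bins. Among copy bins, the early share of 51.4% was 25% where all genes of the bin had a copy (20 bins) and 33.3% with exactly 4 gene starts, so that early copy bins went from a narrow majority to a minority. The median difference from the flanks of 0.66 was 0.36 at 250 kb, 1.31 at 1 Mb and 0.94 with at least 8 gene starts. The median GC content of 49.6% was 48.4% with at least 4 gene starts, 51.0% with at least 8 and 50.2% without clustered families. Late bins filled by a family numbered 64 of 92 with at least 4 gene starts, in place of 14 of 22; more bins enter at that threshold. For the other moves the cause was not tested. Read-through and overlapping gene records of a strand counted once left 164 bins, with an early share of 89.0% and a median RT of 3.53.

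No paired analysis was possible because all libraries share 1 RT value per bin, and leaving out a library was not run for the same reason. The spread between replicates is therefore unknown. Adjacent bins share domains, so intervals that count bins as separate are too narrow by an unknown amount. The same holds for intervals that count copied genes as separate. The copy rule was made after the values were seen. Copies and low GC content occur in the same bins, and the placement of reads among near-identical copies was not tested.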

Other observations

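On the X chromosome, which the rule did not include, 5 bins held 5 or more gene starts. RT was 3.54 at chrX:7900001-7950000 with Pcsk1n, Eras and Hdac6, 3.60 at chrX:74250001-74300000 with Emd, Rpl10, Taz and Atp6ap1, 3.19 at chrX:74350001-74400000 with Ikbkg, and 3.54 at chrX:101250001-101300000 with Foxo4, Il2rg and Med12. The late bin was chrX:11300001-11350000, at -2.94, with 9 genes of the histone variant family H2al1, which is made in spermatids.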
